A study of Sus scrofa with 23 samples.

Results

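Proteasome and ubiquitin enzyme genes were followed in joint cartilage of pigs with and without osteochondrosis, a disorder of endochondral ossification in young animals. A gene was included when a probe set on the array carried exactly 1 gene symbol and that symbol began with PSMA, PSMB, PSMC, PSMD, PSME or UBE2, or with USP followed by a digit. This rule uses no measured value. It found 77 genes on 106 probe sets, among 6765 genes on 10069 probe sets with 1 symbol in the whole table. A filter on low values left 98 of the 106 probe sets, and these still covered all 77 genes. By class the tested probe sets comprised 7 for the alpha subunits and 7 for the constitutive beta subunits of the proteasome core. The immunoproteasome subunits PSMB8 and PSMB10 had 2 and the activators 4. The 19S regulator had 7 for ATPases and 15 for other subunits, a class that takes in all PSMD genes, the assembly chaperone PSMD5 included. The enzymes comprised 36 probe sets of 24 genes for conjugating enzymes and 20 probe sets of 16 genes for deubiquitinases. PSMB9, the other inducible beta subunit, and UBE2L6, the conjugating enzyme of the ubiquitin-like protein ISG15, had no probe set with 1 symbol and were not analysed here.

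Ubiquitin is a small protein that cells attach to other proteins as a tag. An activating enzyme (E1) charges it, a conjugating enzyme (E2, here the UBE2 genes) carries it, and a ligase (E3) places it on the target, while deubiquitinases such as the USP enzymes take it off again. Tagged proteins are recognised and unfolded by the 19S regulator and cut inside the proteasome core, a barrel of alpha rings around beta rings in which PSMB5, PSMB6 and PSMB7 carry the cutting sites. Interferon and immune cells switch on alternative cutting subunits (PSMB8, PSMB9 and PSMB10) and the PA28 activator (PSME1 with PSME2), which together shape the peptides shown on MHC class I molecules. Chondrocytes depend on the same machinery to clear misfolded matrix proteins and to turn over regulators of their growth.

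Messenger RNA was measured on the Affymetrix Porcine Genome Array in cartilage from the joint surface of Duroc by Pietrain crossbred pigs. There were 4 groups of arrays: 8 of affected and 6 of non-affected cartilage from the medial part of the humeral condyle in the elbow, and 4 of affected and 5 of non-affected cartilage from the medial femoral condyle in the knee. A pair of arrays in the affected humerus (5 and 6) and a pair in the non-affected femur (1 and 2) were so alike that each was averaged as 1 sample, which left 7, 6, 4 and 4 samples. Affected and non-affected animals were sib-pairs by the study's design, but the labels used here do not say which arrays are sibs. Nor do they state that each array is a separate animal, so a p-value here reflects only how far these samples scatter. Ages and sexes are not given in the labels used here. Values are on a log2 scale, on which 1 unit is a 2-fold change, with a floor at 4. All differences below are on that scale, with a standard error (SE) and a Benjamini-Hochberg adjusted p from limma over 16799 tested probe sets, and a change is called at an adjusted p under 0.05.

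The cartilage genes COL2A1, ACAN, SOX9 and COMP were far above the floor in every sample, with a lowest value of 7.40 for SOX9. The femoral and humeral arrays differed in more than their tissue. Bacterial control transcripts added at hybridisation (bioB, bioC and bioD) were higher in the femur by a median of 1.52 over 21 probe sets, with all femoral arrays above all humeral ones for 19 of them, whereas controls added before labelling differed by a median of -0.06 over 36 probe sets. Array medians ran from 6.04 to 6.17 in the femur and from 6.17 to 6.32 in the humerus. The 3′ minus 5′ difference of the EF1A transcript, a measure of RNA and labelling quality, had medians of 0.45 and 0.62 in the non-affected and affected femur and of 0.19 and 0.17 in the humerus. For GAPDH and actin the order was the other way, with 0.66 and 0.74 against 0.84 and 0.90 for GAPDH and 2.83 and 2.78 against 3.36 and 3.21 for actin. The labels name no batch of arrays, and in each joint difference below the tissue and whatever set these controls apart cannot be told apart. Within a joint the hybridisation controls differed by status by medians of only -0.04 in the humerus and -0.01 in the femur. The humeral affected sample 1 also stood apart, with a mean labelling control of 8.63 against 9.03 to 9.45 on the other arrays.

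**Figure D1:**
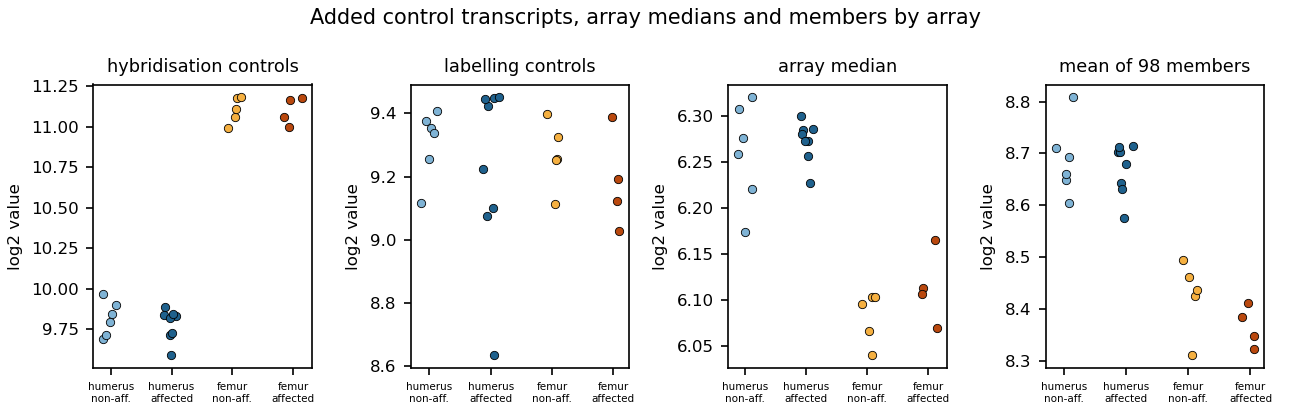
Each point is 1 array and the panels give log2 values of the hybridisation controls, the labelling controls, the array median and the mean of the 98 tested probe sets of proteasome and ubiquitin enzymes, by group. Femoral arrays sit between 10.99 and 11.18 for the hybridisation controls and humeral arrays between 9.59 and 9.97, while 1 affected humeral array has the lowest labelling control, 8.63.

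Disease status came first. Over both joints none of the 98 probe sets passed the test, as was the case for 0% of all tested probe sets, and limma gave an unadjusted p under 0.05 for 5 of the 98 (5.1%), against 7.28% of all tested. The median difference, affected minus non-affected, was -0.04 over these probe sets and -0.01 over all tested. In the humerus alone limma again called none of the 98, against 0% of all tested, with 7 of 98 at an unadjusted p under 0.05, which is 7.14% against 6.55% of all tested. No probe set separated affected from non-affected humeral samples without overlap, while 0.22% of all tested probe sets did. In the femur 1 of the 98 was called, a probe set of the conjugating enzyme UBE2E3, against 1.14% of all tested probe sets.

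The smallest unadjusted p-values in the humerus fell on an activator and on conjugating enzymes. PSME3, the nuclear proteasome activator, had a lowest, median and highest value of 7.22, 7.39 and 7.63 in affected and of 7.55, 7.64 and 7.88 in non-affected humeral samples. All 7 affected samples were below the non-affected mean, although the ranges overlapped, and the difference was -0.28 ± 0.09 (SE, limma adjusted p = 0.64). UBE2A, a conjugating enzyme of DNA repair, had a difference of -0.29 ± 0.12 (SE, limma adjusted p = 0.75) with all 7 affected samples below the non-affected mean. PSMD5, a chaperone of regulator assembly, had -0.37 ± 0.17 (SE, limma adjusted p = 0.76), again with 7 of 7. The 7 constitutive beta subunits all had positive differences in the humerus, from 0.01 to 0.12, and each of these was smaller than 1.5 times its SE.

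UBE2E3, a ubiquitin-conjugating enzyme, was the gene that fell in the affected femur. On the called probe set the affected femoral samples read 8.29, 7.74, 7.76 and 8.45 and the non-affected ones 8.80, 8.57, 8.71 and 8.63. The groups did not overlap, but the affected samples were uneven. The value of 8.45 lay closest to the non-affected range, 8.29 further below it, and 7.74 and 7.76 lowest. The difference was -0.62 ± 0.15 (SE, limma adjusted p = 0.0461). In the humerus the same probe set ran from 8.501 to 8.94 in affected and from 8.51 to 8.81 in non-affected samples, a difference of 0.03 ± 0.12. The other UBE2E3 probe sets gave -0.53 ± 0.16 (adjusted p = 0.0888) and -0.43 ± 0.12 (adjusted p = 0.0722) in the femur, the latter on a probe set whose suffix marks possible matches to several transcripts. The call was lost in 4 of 9 alternative settings and in 16 of 21 fits that left out 1 sample, with differences between -0.75 and -0.51 and an adjusted p of up to 0.25. The difference between the joints' status effects on this probe set was -0.65 ± 0.19 (limma adjusted p = 0.12).

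The immunoproteasome and PA28 genes had the largest status differences in the femur among the proteasome subunits, and none of them passed the test. PSMB8, the inducible counterpart of PSMB5, read 4.96, 4, 4.52 and 5.33 in the affected femoral samples, and the lowest of these sits on the floor. It read 4.67, 5.54, 7.12 and 6.74 in the non-affected femoral samples. Its lowest, median and highest values were 5.96, 6.97 and 7.92 in affected and 4.33, 6.86 and 7.52 in non-affected humeral samples. The affected femoral samples were low but overlapped with the lowest non-affected one, and the difference was -1.32 ± 0.63 (SE, limma adjusted p = 0.24). In the humerus it was 0.66 ± 0.50 (adjusted p = 0.82), or 0.26 without the non-affected sample 5, which had the lowest humeral PSMB8 value of 4.33.

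PSME1, the alpha chain of PA28, read 9.40, 8.78, 8.72 and 9.42 in the affected and 9.63, 9.65, 10.60 and 9.94 in the non-affected femoral samples. All affected values were below all non-affected ones, and the difference was -0.87 ± 0.28 (SE, limma adjusted p = 0.11). PSME2, the beta chain, read 8.66, 8.97, 8.62 and 9.15 against 9.27, 9.03, 9.86 and 9.996, with ranges that overlapped and a difference of -0.69 ± 0.29 (adjusted p = 0.19). PSMB10, the counterpart of PSMB7, read 7.28, 6.72, 7.80 and 7.75 in the affected and 8.30, 7.77, 8.46 and 7.94 in the non-affected femoral samples. The 4 affected values lay below the non-affected mean, with 1 inside the non-affected range, for a difference of -0.73 ± 0.27 (adjusted p = 0.15). USP18, the interferon-induced protease that removes ISG15 from proteins, read 6.98, 6.95, 7.24 and 5.62 in the affected and 7.03, 7.32, 8.54 and 7.54 in the non-affected femoral samples. The ranges overlapped, and the femoral difference was -0.91 ± 0.44 (adjusted p = 0.25), or -0.55 without the affected femoral sample 4 and -0.60 without the non-affected femoral sample 4.

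In the humerus the same genes had differences of the other sign: 0.44 for PSMB10, 0.34 for PSME1, 0.26 for PSME2 and 0.14 for USP18, with adjusted p-values of 0.76 or more. Single samples moved these humeral values by over 1.5 times. USP18 ran from -0.07 to 0.36 over the fits without 1 sample and turned negative without the affected humeral pair 5 and 6. Without the non-affected humeral sample 5, PSMB10 had 0.28, PSME1 0.21 and PSME2 0.17, and without the non-affected humeral sample 1 PSME2 had 0.14. The test of the difference between the joints' status effects called none of the 98 probe sets in limma, against 0.268% of all tested (0.226% lower and 0.0417% higher), with 21 of 98 at an unadjusted p under 0.05, which is 21.4% against 18.9% of all tested. That difference was -1.98 ± 0.80 for PSMB8 (adjusted p = 0.21), -1.17 ± 0.34 for PSMB10 (adjusted p = 0.12) and -1.21 ± 0.36 for PSME1 (adjusted p = 0.12). For PSME2 it was -0.95 ± 0.37 (adjusted p = 0.19) and for USP18 -1.05 ± 0.56 (adjusted p = 0.31), or -0.69 without the affected femoral sample 4. The smallest adjusted p, 0.11, belonged to the deubiquitinase USP24, with a difference of 0.74 ± 0.20.

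**Figure D2:**
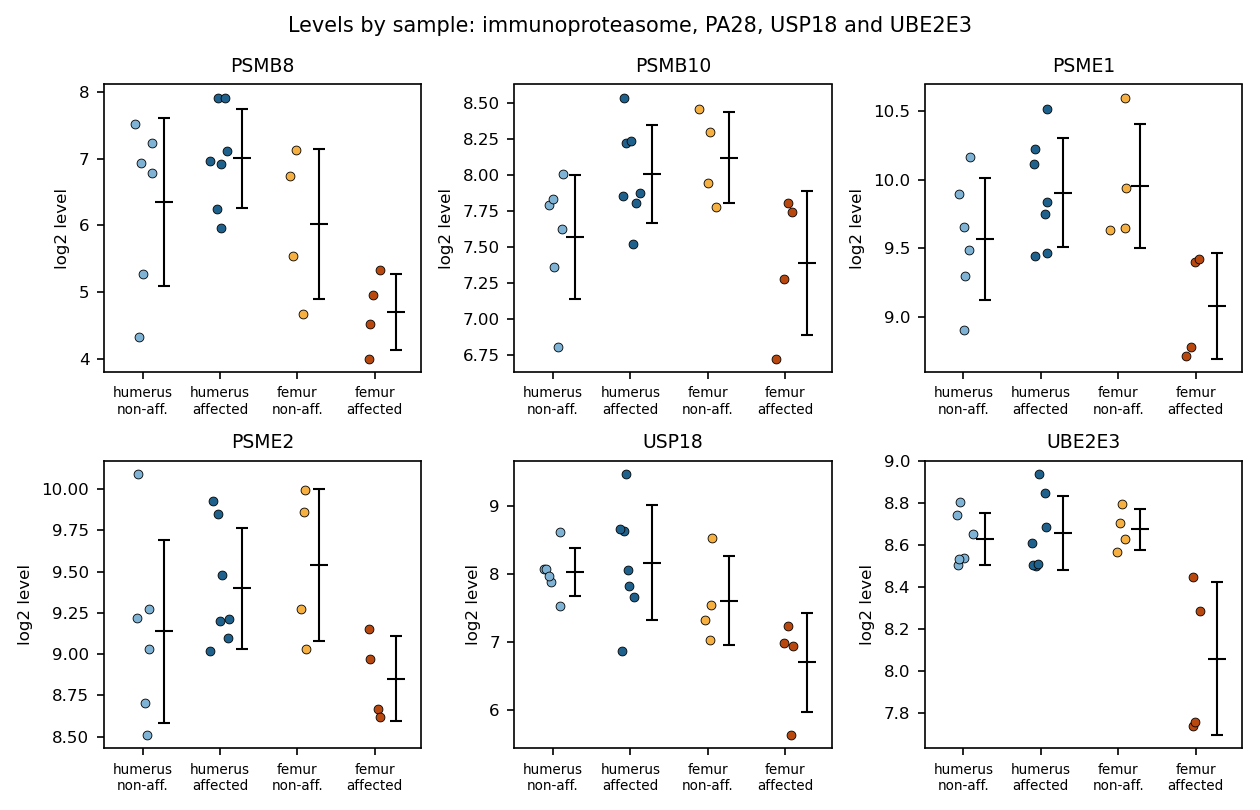
Log2 levels of PSMB8, PSMB10, PSME1, PSME2, USP18 and UBE2E3 in each of the 21 samples by group, with the group mean and SD beside the points. The affected femoral samples have the lowest group mean in all 6 panels, from 4 to 5.33 for PSMB8 and from 7.74 to 8.45 for UBE2E3.

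Markers of myeloid cells and endothelium had status differences of the same signs. Over 10 myeloid genes the mean log2 level ran from 4.71 to 6.24 in affected and from 6.01 to 7.87 in non-affected femoral samples, and from 6.88 to 9.15 in affected and 5.50 to 8.63 in non-affected humeral samples. All 9 tested myeloid genes had a negative status difference in the femur (median -1.87) and a positive one in the humerus (median 0.85), and none was called. The 7 endothelial genes ran from 4.81 to 6.63 and from 4.72 to 6.90 in affected and non-affected femoral samples, and from 7.12 to 8.47 and from 5.70 to 7.997 in the humerus. Their median status difference over 6 tested genes was -0.86 in the femur (5 negative, 1 positive) and 0.96 in the humerus (6 positive), with none called. Osteoclast markers also had a positive humeral (0.61) and a negative femoral median (-0.26), but 2 of 5 genes were positive in the femur. Other lists had positive medians in both joints: bone matrix 0.40 (humerus) and 0.40 (femur), erythroid 0.48 and 0.50, and skeletal muscle 0.27 and 0.05. The 1 tested lymphocyte gene had 0.24 and -0.11. The neutrophil medians were 1.89 (humerus) and 0.18 (femur, 4 of 6 genes positive), and the 7 cartilage genes were all negative in the humerus (median -0.17) and all positive in the femur (median 0.29). None of these genes was called by status. No gene of the myeloid or endothelial list was at the floor in all samples of a group. In bulk tissue, fewer cells of a type and less RNA per cell cannot be told apart, and the part of these markers in the PSMB8, PSMB10, PSME1, PSME2 and USP18 values was not tested.

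Across the 21 samples the genes whose pattern was most like that of PSMB8 were SLA-DQB1 (Pearson r = 0.974), ACSL5 (0.971), AIF1 (0.969), VSIG4 (0.968) and SLA-DMB (0.967), which include MHC class II genes and macrophage genes. For the proteasome genes the same measure gave 0.865 for PSME1, 0.715 for PSME2 and 0.608 for PSMB10, and 0.71 for USP18. The constitutive subunits that PSMB8, PSMB9 and PSMB10 replace gave -0.07 for PSMB5, 0.434 for PSMB6 and 0.594 for PSMB7. All these values share the same arrays and include the differences between groups, so they are a description. With each sample taken as a deviation from its group mean, r was 0.966 for AIF1, 0.888 for PSME1, 0.736 for PSME2 and 0.570 for PSMB10. USP18 then had 0.49, and PSMB5, PSMB6 and PSMB7 had -0.24, -0.02 and 0.365. In the RefSeq annotation of Sscrofa11.1, PSMB8 lies between the peptide transporter genes TAP1 and TAP2, and TAP1 alone separates it from PSMB9. TAP1 itself had status differences of 0.54 in the humerus and -0.36 in the femur (adjusted p of 0.64 and 0.33). The list of 10 interferon and antigen-processing genes had medians of 0.17 and -0.58, with no member called in either joint.

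In the femur 9 probe sets, those of PSME1 and UBE2E3 above included, had affected and non-affected samples that did not overlap, 9.18% of 98 against 8.08% of all tested. Those with all affected samples above were USP24 and USP28. USP24 read 7.39, 7.57, 7.19 and 7.18 in the affected and 7.04, 6.45, 6.59 and 6.87 in the non-affected femoral samples, a difference of 0.60 ± 0.16 (SE, limma adjusted p = 0.0658). It passed the test without the affected humeral sample 1 (0.60) or without the non-affected femoral pair 1 and 2 (0.70). USP28, a deubiquitinase that stabilises MYC, read 8.66, 8.62, 8.46 and 8.52 against 8.38, 8.02, 8.10 and 8.03, a difference of 0.43 ± 0.16 (adjusted p = 0.16).

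The 7 with all affected femoral samples below belonged to PSMC3, PSMD4, PSMB2, PSME1, USP2 and, with 2 probe sets, UBE2E3. PSMC3, an ATPase of the regulator, read 9.89, 9.76, 9.76 and 9.94 in the affected and 10.50, 10.02, 10.21 and 10.13 in the non-affected femoral samples, a difference of -0.37 ± 0.13 (adjusted p = 0.14). PSMD4, a ubiquitin receptor of the regulator, had -0.28 ± 0.12 (adjusted p = 0.21) and PSMB2 -0.16 ± 0.11 (adjusted p = 0.42). USP2, a deubiquitinase under circadian control, read 7.25, 6.47, 7.13 and 7.54 in the affected and 7.74, 7.99, 8.18 and 7.85 in the non-affected femoral samples. Its affected samples spread over more than 1 unit while the non-affected ones lay close together, and the difference was -0.84 ± 0.33 (adjusted p = 0.17). Among the 9, the UBE2E3 probe set given above was the only one that passed the test.

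By class, the 7 alpha and the 7 constitutive beta probe sets all had negative differences in the femur, with medians of -0.14 and -0.11 against 0.01 over all tested probe sets. With arrays quantile normalised 5 of the 7 alpha and 6 of the 7 beta probe sets stayed negative. None of these 14 was called, and the largest was PSMA6 at -0.42 ± 0.18 (limma adjusted p = 0.20). The 20 deubiquitinase probe sets had a femoral median of 0.14, with 11 positive and 9 negative, and 8 of them (40.0%) had an unadjusted p under 0.05, against 23.5% of the 98 and 20.4% of all tested. Conjugating enzymes had a median of 0.03, with 21 of 36 positive.

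**Figure D3:**
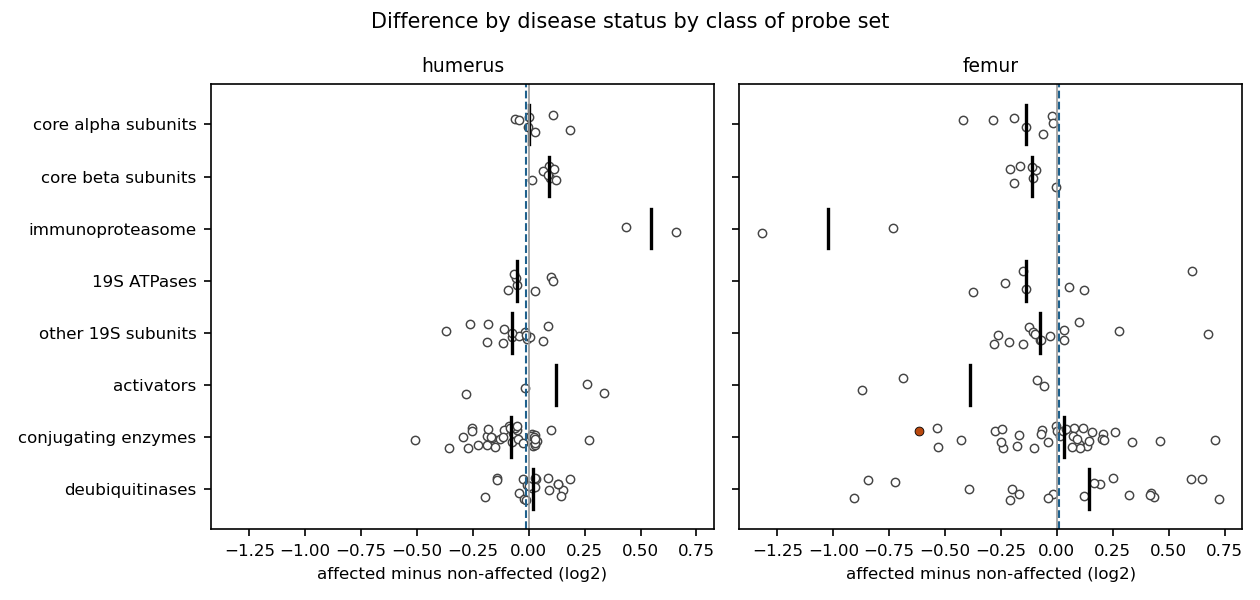
Each point is 1 tested probe set, placed by its affected minus non-affected difference (log2) in the humerus and in the femur, with filled points called by limma, a bar at the class median and a dashed line at the median of all tested probe sets. Only the UBE2E3 probe set in the femur is filled, and the immunoproteasome median is 0.55 in the humerus and -1.02 in the femur.

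The joints differed far more than the disease groups. With status in the model, 54 of 98 probe sets were called between femur and humerus, 48 lower and 6 higher in the femur, against 51.8% of all tested probe sets (34.2% lower and 17.6% higher). The share of called probe sets, 55.1%, was thus near that of the whole array, with 49.0% lower, and the median difference was -0.24 against -0.12. The direction depended on the scaling of the arrays. With array medians set equal, which moved the median of all tested probe sets from -0.12 to 0.05, the calls were 17 higher and 31 lower, and with quantile normalisation 13 higher and 35 lower. The array's own shares of calls under these rescalings are not given here, so rescaled counts, here and below, have no such comparison. Under all 3 scalings 31 probe sets of 27 genes were lower and 6 were higher in the femur. The genes named below as lower or higher in this comparison over both statuses are among these unless stated. Marker lists of other cells also differed between the joints. Over both statuses 8 of 9 myeloid, 6 of 6 neutrophil and 6 of 6 endothelial genes were called lower in the femur. Of 5 osteoclast genes 4 were called lower and 1 higher, and of 7 bone matrix genes 5 lower and 1 higher. Among skeletal muscle genes 6 of 8 were called higher. The part of these cells in the joint differences was not tested.

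Core alpha subunits were called lower in the femur for 5 of 7 genes, 71.4% against 34.2% of all tested probe sets. All 7 differences were negative, with a median of -0.49. With equal array medians 4 were called lower and 5 of 7 were negative, with a median of -0.325. PSMA4 had a lowest, median and highest value of 9.49, 9.86 and 10.05 in affected and 9.31, 9.73 and 9.999 in non-affected humeral samples. In the femur it read 8.72, 8.62, 8.63 and 8.79 in affected and 8.76, 9.004, 9.11 and 9.03 in non-affected samples. Every femoral sample was below every humeral one, and the difference over both statuses was -0.93 ± 0.10 (SE, limma adjusted p = 5.77e-07). PSMA6 fell by 0.63 (SE 0.13, adjusted p = 0.00041), PSMA3 by 0.56 (SE 0.16, adjusted p = 0.00565) and PSMA1 by 0.49 (SE 0.10, adjusted p = 0.000361).

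Constitutive beta subunits behaved less uniformly. PSMB3 was lower in the femur by a difference of -0.53 ± 0.12 (SE, limma adjusted p = 0.0011), and PSMB1 (-0.18) and PSMB2 (-0.20) were called as deposited but not with equal medians or quantile normalisation. The PSMB2 call was also lost without the affected femoral sample 1 (-0.17). The class median was -0.16 as deposited and 0.01 with equal medians. PSMB5, the subunit with the chymotrypsin-like site, read 10.80, 10.90, 10.86 and 10.97 in the affected and 11.11, 11.26, 11.07 and 10.88 in the non-affected femoral samples. Its humeral samples ran from 10.62 to 11.21, so the groups overlapped, and the joint difference was 0.07 ± 0.08 (adjusted p = 0.50).

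Over both statuses 4 of 7 probe sets of 19S ATPases were called lower in the femur, 57.1% against 34.2% of all tested. PSMC2 accounted for 3 of these calls. Other 19S subunits had 5 of 15 called lower, 33.3%, near the array's share. With equal array medians the ATPases had 4 lower and 2 higher calls (median -0.25), the other subunits 2 lower and 4 higher (median 0.01). Some members had large differences. PSMC6, an ATPase subunit, read 8.26, 8.87, 9.09 and 8.22 in the affected and 8.26, 7.48, 7.93 and 8.35 in the non-affected femoral samples. Its lowest, median and highest humeral values were 8.12, 9.33 and 9.51 in affected and 8.59, 9.24 and 9.86 in non-affected samples. All non-affected femoral samples lay below all non-affected humeral ones, for a difference of -1.23 ± 0.29 (SE, limma adjusted p = 0.00301), whereas in affected cartilage the ranges overlapped and the difference was -0.53 ± 0.28 (adjusted p = 0.13). The lid subunit PSMD12 read 7.15, 7.93, 7.72 and 6.89 in the affected and 7.26, 6.33, 6.30 and 7.09 in the non-affected femoral samples. Its non-affected humeral samples ran from 7.71 to 8.59, above every non-affected femoral one, and the difference was -1.40 ± 0.26 (adjusted p = 0.000714), against -0.54 ± 0.26 (adjusted p = 0.10) in affected cartilage. The test of whether these differences depend on status did not call either gene, with adjusted p-values of 0.34 and 0.22. The 3 probe sets of PSMC2 fell by 0.42 to 0.50. PSMC3 and PSMD3 were instead higher in the non-affected femur, by 0.41 ± 0.12 (adjusted p = 0.0132) and 0.29 ± 0.11 (adjusted p = 0.0464). The PSMC3 call was lost without the non-affected femoral pair 1 and 2 (0.32), and the PSMD3 call in 13 of the 21 fits that left out 1 sample.

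**Figure D4:**
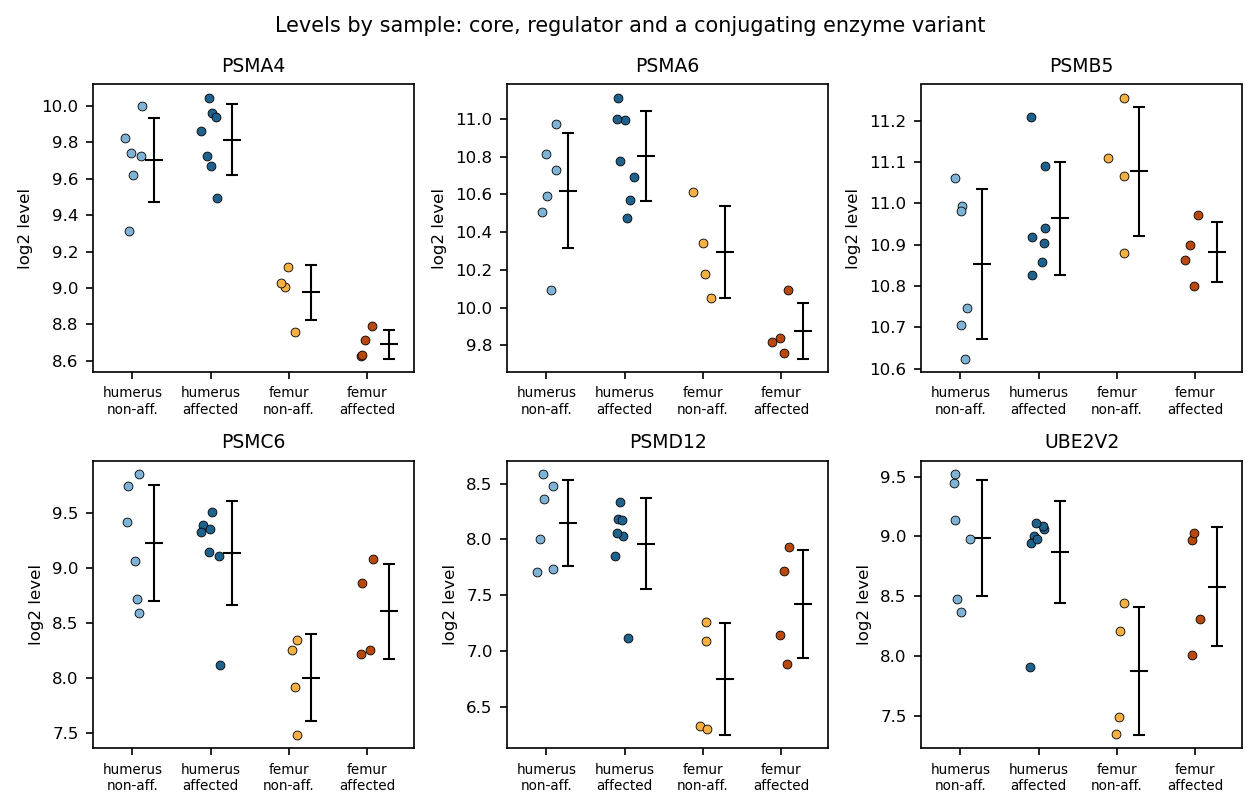
Log2 levels of PSMA4, PSMA6, PSMB5, PSMC6, PSMD12 and UBE2V2 in each of the 21 samples by group, with the group mean and SD beside the points. PSMA4 lies between 8.62 and 9.11 in the femur and between 9.31 and 10.05 in the humerus, and PSMB5 overlaps in all 4 groups.

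On the values as deposited, the immunoproteasome subunits, PSME1 and USP18 were called lower in the femur in affected cartilage. PSMB8 had a difference of -2.30 ± 0.56 (SE, limma adjusted p = 0.0034), with every femoral sample below every humeral one, against -0.32 ± 0.58 (adjusted p = 0.69) in non-affected cartilage. The non-affected value ran from -0.73 without the humeral sample 5 to 0.12 without the femoral pair 1 and 2, so its sign rests on single samples. USP18 had -1.47 ± 0.39 (adjusted p = 0.00632) and -0.42 ± 0.40 (adjusted p = 0.43) in turn, the latter between -0.73 and -0.23 over the fits without 1 sample. PSME1 had -0.83 ± 0.25 in affected cartilage (adjusted p = 0.0133), a call that was lost without the affected femoral sample 3 (-0.71, adjusted p = 0.0525). PSMB10 had -0.62 ± 0.24 (adjusted p = 0.0438), with -0.40 when the affected femoral sample 2 was left out. This call was lost in 5 of 10 alternative settings, both rescalings among them, and in 8 of 21 fits without 1 sample. In non-affected cartilage PSMB10 and PSME1 had positive joint differences instead, 0.55 and 0.39 (limma adjusted p of 0.0824 and 0.245). There PSMB10 was called higher in the femur with all 23 arrays as separate samples and under either rescaling. The test of a dependence on status is the one given above for the status effects, which called none of them. All 9 tested myeloid genes were also called lower in the affected femur than in the affected humerus (median -3.59), as were all 6 endothelial genes (median -3.25). So were 5 of 6 neutrophil (median -3.395), 4 of 5 osteoclast (-1.48, 1 called higher) and 4 of 7 bone matrix genes (-1.55). The array's share of lower calls was 24.6%. Of 7 cartilage genes 3 were called higher, and no erythroid, lymphocyte or skeletal muscle gene was called. The part of these cells was not tested. PSME4, an activator that acts on histones, was lower in both statuses, by -0.71 ± 0.23 in non-affected and -0.78 ± 0.22 in affected cartilage (adjusted p of 0.0201 and 0.009). The call in non-affected cartilage was lost without the non-affected femoral sample 3 (-0.59) or 4 (-0.57) and under either rescaling.

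Of the 36 conjugating enzyme probe sets 22 were lower and 2 higher in the femur, 61.1% lower against 34.2% of all tested, with a median of -0.38. These shares count probe sets, which cover 24 genes. UBE2D2 and UBE2E3 had 3 of the lower calls each, and UBE2A, UBE2T and UBE2W 2 each. The share called in either direction was 66.7%, against 51.8% of all tested and 71.4% for the 7 alpha subunits. With equal array medians 14 were called lower and 3 higher, with a class median of -0.21. Quantile normalisation gave 16 lower and 3 higher, with a median of -0.24. UBE2C, which works with the anaphase-promoting complex in dividing cells, had the largest difference of the class, -1.02 ± 0.29 (SE, limma adjusted p = 0.00563), on a probe set with wide spread in every group. UBE2W, which tags protein N termini, read 6.11, 6.29, 6.07 and 6.08 in the affected and 6.64, 5.99, 5.70 and 6.07 in the non-affected femoral samples. Its lowest, median and highest humeral values were 6.33, 6.82 and 7.005 in affected and 6.72, 6.95 and 7.39 in non-affected samples. Within each status no femoral sample reached the humeral range, and the difference was -0.78 ± 0.12 (adjusted p = 4.08e-05). UBE2B and UBE2A, the paired enzymes of DNA damage tolerance, had -0.72 ± 0.13 and -0.62 ± 0.10 (adjusted p of 0.000149 and 4.14e-05). UBE2F, which carries the ubiquitin-like protein NEDD8, had -0.68 ± 0.12 (adjusted p = 8.85e-05), with all femoral samples at or below 7.45 and all humeral samples at or above 7.62.

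UBE2N and its inactive partner UBE2V2 form the enzyme pair that builds non-degradative ubiquitin chains. UBE2N had a joint difference of -0.43 ± 0.08 (SE, limma adjusted p = 0.000252). UBE2V2 read 8.31, 8.97, 9.03 and 8.01 in the affected and 8.21, 7.35, 7.49 and 8.44 in the non-affected femoral samples, with humeral samples from 7.91 to 9.52. Its difference was -1.11 ± 0.29 (adjusted p = 0.00615) in non-affected and -0.29 ± 0.28 (adjusted p = 0.43) in affected cartilage, and the test of that dependence on status gave 0.82 ± 0.40 (adjusted p = 0.27). The higher calls of the class were 1 of the 2 probe sets of UBE2L3 (0.30 ± 0.10, adjusted p = 0.0147), the enzyme of parkin-type ligases, and 1 of the 2 of UBE2O (0.25 ± 0.09, adjusted p = 0.0235). The other probe set of each had a negative difference, -0.21 and -0.03. The UBE2O call was lost without the affected femoral sample 4 (0.21).

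Of the 20 deubiquitinase probe sets 10 were called over both statuses, 6 lower and 4 higher in the femur. Calls in both directions were also the rule for the whole array, with 51.8% of all tested called (34.2% lower and 17.6% higher). The total for the class was thus near the array's share. The class median was -0.08 as deposited and 0.09 with equal array medians. The lower genes were USP18, described above, with USP16 (2 probe sets), USP24, USP8 and USP7. USP7, which stabilises the p53 regulator MDM2, had -0.30 ± 0.07 (SE, limma adjusted p = 0.00129) but was not called under all 3 scalings. USP24 was lower in the femur by -1.02 ± 0.15 (SE, limma adjusted p = 8.95e-05) in non-affected and by -0.28 ± 0.14 (adjusted p = 0.13) in affected cartilage. USP16, a histone deubiquitinase, had -0.68 ± 0.13 on the probe set with the smaller p (adjusted p = 0.000204). USP8, which sorts receptors at endosomes, had -0.58 ± 0.17 (adjusted p = 0.00633). The higher genes were USP10, USP4, USP30 and USP36. USP10 had 0.38 ± 0.10 on one probe set (adjusted p = 0.00214) and -0.08 ± 0.08 on the other. USP30, a mitochondrial deubiquitinase, had 0.30 ± 0.10 (adjusted p = 0.0153). USP2 was higher in the non-affected femur by 0.96 ± 0.30 (adjusted p = 0.0181), with its 4 femoral samples between 7.74 and 8.18 and the non-affected humeral ones between 6.18 and 7.54, and this call was lost without the non-affected femoral sample 4 (0.88, adjusted p = 0.0528).

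**Figure D5:**
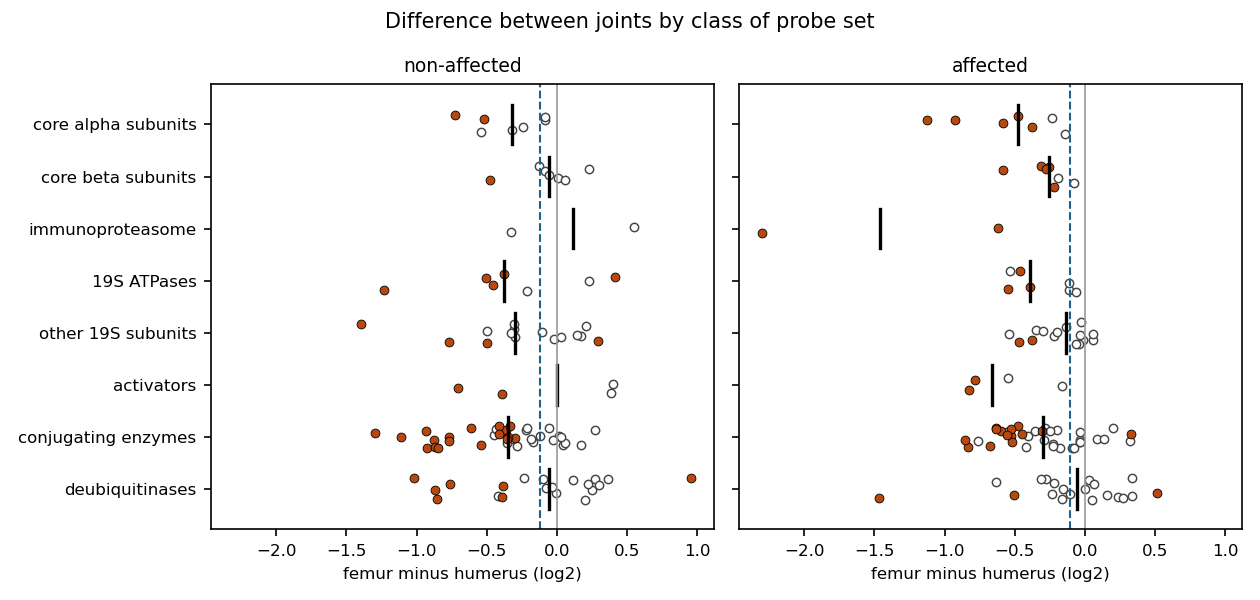
Each point is 1 tested probe set, placed by its femur minus humerus difference (log2) in non-affected and in affected cartilage, with filled points called by limma, a bar at the class median and a dashed line at the median of all tested probe sets. Medians of the conjugating enzymes are -0.35 and -0.30 and those of the deubiquitinases -0.06 and -0.05.

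Within each status the total of calls was near the array's share, with more lower and fewer higher calls. In non-affected cartilage 39 of 98 probe sets were called, 3 higher and 36 lower (36.7% of the 98), and the total was 39.8% against 36.6% of all tested (25% lower and 11.6% higher). Equal array medians gave 15 higher and 17 lower and quantile normalisation 13 and 20. The groups did not overlap for 25 probe sets, 25.5% against 21.1%. In affected cartilage 36 were called, 2 higher and 34 lower (34.7% of the 98), and the total was 36.7% against 38.5% (24.6% lower and 13.9% higher). Here equal medians gave 8 higher and 16 lower and quantile normalisation 8 and 21, and 15 probe sets did not overlap, 15.3% against 20.2%. Genes lower in the femur under all 3 scalings numbered 16 in non-affected and 13 in affected cartilage, with PSMA4, PSMC2, UBE2B and UBE2W in both lists.

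The other genes of the pathway were not called by status in either joint by limma. Between the joints, the lists gave calls in both directions on the values as deposited, and other scalings were not run for these genes. The array's own shares of calls were 25% lower and 11.6% higher in non-affected and 24.6% lower and 13.9% higher in affected cartilage. Of 4 measured E1 genes, UBA2, SAE1 and UBA3, which serve ubiquitin-like proteins rather than ubiquitin, were lower in the non-affected femur. Their differences were -1.12, -0.48 and -1.04 (adjusted p of 0.00253, 0.0181 and 0.00753). UBA3 was also lower in the affected femur (-0.74, adjusted p = 0.0365). Of 10 tested deubiquitinases outside the USP family 3 were lower in non-affected and 5 in affected cartilage, with UCHL3 at -0.78 and -1.11 (adjusted p of 0.00713 and 0.000405). Of 14 tested ligases 6 were lower in non-affected cartilage, while 3 were higher and 4 lower in affected cartilage. FBXW7, a substrate receptor of cullin ligases, had -0.88 in both (adjusted p of 0.00185 and 0.00117). The muscle-wasting ligase FBXO32 had -1.53 (adjusted p = 0.00117) and WWP2, a ligase of chondrocytes, 0.68 (adjusted p = 0.0166) in affected cartilage. Of the 2 ubiquitin genes UBB was lower in the affected femur (-0.29, adjusted p = 0.015). Of 4 genes for proteasome assembly and inhibition PSMG1 was lower in non-affected cartilage (-0.39, adjusted p = 0.0256) and none was called in affected cartilage. Of 3 shuttle and segregase genes VCP was higher in the non-affected femur (0.30, adjusted p = 0.0237) and UFD1 lower in the affected femur (-0.30, adjusted p = 0.0153).

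Most proteasome and ubiquitin enzyme genes varied little from sample to sample. The within-group SD had a median of 0.217 over the 98 probe sets and of 0.274 over all tested. PSMB1 (0.089), PSMA7 (0.094) and PSMD8 (0.103) were the most even, each among the lowest 0.8% of all tested probe sets. PSMB8 was the most variable at 0.971, above 98.1% of all tested probe sets, followed by UBE2C at 0.691 and USP18 at 0.676.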

How the data were processed

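Total RNA was labelled with biotin and hybridised to 23 arrays. The table deposited by the authors holds 1 log2 value per probe set and array (24123 probe sets, of which 124 are controls), from 4 to 17.6. GCOS 1.1.1 is named in the submitters' processing notes, and the normalisation is not given in the labels or headers. Values were used as deposited, with no further scaling. Depth does not apply to arrays, whose number limits the precision. Groups were taken from the labels' tissue and status. Arrays of 1 group whose values differed by an SD under 0.25 (2 pairs) were averaged. The filter kept 16799 probe sets and removed 7200 whose mean over samples was below 5.30, the 30th percentile. limma 3.58.1 in R 4.3.3 (lmFit, eBayes) fitted the 4 group means, and site with status for the comparisons over both. Steps were tested on simulated data. Gene names came from the platform annotation (10099 probe sets with 1 symbol, 198 with several and 13826 outside it). Of the 106 probe sets of proteasome and ubiquitin enzymes, 102 had an Entrez ID found in RefSeq's Sscrofa11.1 table, and none changed its symbol. Marker and pathway lists were described by counts and medians with 1 probe set per gene.

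Genes eligible to be named were PSMB8, PSMB10, PSME1, PSME2 and USP18, then in each comparison and class the 3 called genes with the largest change per direction. Where a status comparison called none of a class, the 2 with the smallest p were eligible, and so were genes whose probe sets had opposite signs. Genes named for not overlapping, for their spread or as pathway examples were chosen after their values were seen, as were PSMB5, UBE2N and USP7. The members and lists were chosen with earlier results of these data known. Alternatives concerned the filter, pair averaging, array scaling, probe sets at the floor, limma's variance trend and array weights, 1 probe set per gene, fits on the compared groups alone, and the omission of each sample in turn. Python 3.11.15, pandas 2.3.3, numpy 2.4.6 and matplotlib 3.10.9 were used for summaries and plots.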

Additional observations from a re-analysis of the deposited data

Results flagged for a closer look

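In groups of 4 to 7 samples, 18 of 212 combinations of group and named probe set had 1 sample set apart, in that its gap to the nearest other sample was a larger share of the group's range than Dixon's 95% critical value. Chance gives about 1 in 20 such groups. The affected humeral sample 1 accounted for 8 of them. It was the lowest of its group for PSMA1 (9.64), PSMA2 (10.66), PSMC2 (9.25), PSMC6 (8.12), PSMD12 (7.11), PSMD14 (7.39) and UBE2V2 (7.91), and the highest for UBE2L3 (8.46). This sample was the lowest of its 7 for 32 of the 98 tested probe sets and the highest for 22. The affected humeral sample 3 was the lowest for UBE2D4 (5.39).

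In the non-affected humerus, sample 5 was the lowest for PSME4 (6.30) and for a UBE2E3 probe set (11.16), and sample 3 the highest for USP16 (6.74). In the non-affected femur, the averaged pair 1 and 2 was the lowest for UBE2QL1 (7.93), sample 3 for USP8 (5.25) and sample 4 for USP3 (7.51). In the affected femur, sample 4 was the highest for UBE2D4 (5.78) and for USP3 (7.71), and sample 3 the highest for PSMD3 (8.94).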

How the results depend on the processing

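The count of called probe sets in the affected against the non-affected femur, 1 as reported, was 0 with no filter, with quantile normalisation, with array weights, with the brightest probe set per gene and with only the groups compared in the fit, and 3 with all 23 arrays as separate samples. Leaving out 1 sample at a time gave 0 to 3: 2 without the affected humeral sample 1 or the affected femoral sample 1, and 3 without the affected femoral sample 4. The status counts over both joints, in the humerus and for the difference between joints were 0 under every alternative that was run. The total joint counts stayed within 1.5 times the reported ones, but their directions did not: equal array medians took the higher and lower calls from 6 and 48 to 17 and 31 over both statuses, from 3 and 36 to 15 and 17 in non-affected and from 2 and 34 to 8 and 16 in affected cartilage. The totals ran from 51 to 58 over both statuses, 27 to 43 in non-affected and 24 to 43 in affected cartilage when 1 sample was left out. No call on a named gene changed its sign, 147 of the refits on named genes lost a call and 6 gained one. The difference between joints was not rerun with only the groups compared, since it uses all of them. No paired analysis was possible because the labels used here do not say which samples are sibs. The scaling of femoral against humeral arrays limits all joint directions, and values near the floor of 4 understate differences.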

Other observations

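Of the 106 probe sets, 8 fell under the filter and were not tested. They belonged to UBE2C, UBE2D4, UBE2V1, USP16, USP4, USP7 and USP9X, all of which had another tested probe set, and their values lay between 4 and 5.95 in all samples. Of the 16 genes with several tested probe sets, the probe sets differed in sign for 5 in the joint comparison over both statuses (UBE2H, UBE2L3, UBE2O, USP10 and USP4), for 9 in the femoral and for 7 in the humeral status comparison. UBE2H, an E2 enzyme, had joint differences of -0.42 and 0.13 on its 2 probe sets, and USP4 ran from -0.09 to 0.28 over its 3.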
